A study of Homo sapiens with 34 samples.

Results

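The control culture of the study was followed through 2 cycles, and the hours at which ARNTL RNA was high were compared with the hours at which it was low. ARNTL encodes BMAL1, the activator at the center of the circadian clock. The 12 control libraries, of 34 libraries in the series, were split by ARNTL: the 6 around its peak in each cycle (CT08, CT12, CT16, CT32, CT36, and CT40) are the ARNTL-high hours, and the 6 others (CT00, CT04, CT20, CT24, CT28, and CT44) are the ARNTL-low hours. The split was made on measured ARNTL, so its level is a description and was not tested.

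The culture was of *Bmal1*:*luc* U2OS, a human osteosarcoma line in which the promoter of *Bmal1* drives luciferase. All cells were synchronized with dexamethasone, a glucocorticoid, and the control cells received DMSO, the solvent of the drug. A culture treated with 5 mM 6AN (6-aminonicotinamide), an inhibitor of the pentose phosphate pathway, was sampled at the same 12 CT hours and was used here only for values side by side. Both RNA-seq series hold 1 library every 4 hr, so the 6 time points of each group stand in for replicates. Neighboring time points share much of their state, so p-values over them may be too small. RNA was extracted in triplicate, and pooling of the extracts is not stated in the sources used here. All cells come from this 1 reporter line, and the table holds 1 control culture series.

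In the mammalian clock, BMAL1 pairs with CLOCK or NPAS2 and binds E-boxes in the promoters of its targets. Among these targets are the PER and CRY repressors, which inhibit BMAL1/CLOCK and so close the main feedback loop. REV-ERB receptors (NR1D1, NR1D2) repress ARNTL and NPAS2 through response elements that ROR receptors activate. A further arm runs through D-boxes, which the PAR-bZIP factors DBP, TEF, and HLF activate and NFIL3 represses. U2OS cells are a common model of this clock in culture.

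The elements of these loops are short enough to read in the promoters of the clock genes measured here. The stretches below come from RefSeq promoter windows on GRCh38.p14, which span 250 bases before to 50 after each annotated start, and are written 5′ to 3′ on the strand of the gene with the motif in capitals. They are the 12 matches found in the windows of ARNTL and the expressed clock factors, shown so that the response element of ARNTL can be read beside the E-boxes and D-boxes of the other factors.
ARNTL, REV-ERB/ROR element, chr11:13277807-13277836: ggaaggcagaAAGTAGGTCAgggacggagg
CLOCK, REV-ERB/ROR element, chr4:55546130-55546159: ctaggccttgTGACCCACTTtattcctgtc
PER1, E-box, chr17:8152562-8152587: cacccaggtcCACGTGcgcccgtgtg
TEF, upstream E-box, chr22:41367250-41367275: gcgacagctcCACGTGctgcagctgg
TEF, downstream E-box, chr22:41381739-41381764: cctggccccgCACGTGtctatcttat
NR1D2, upstream E-box, chr3:23945956-23945981: cgggcggggaCACGTGaggccgctcg
NR1D2, downstream E-box, chr3:23946006-23946031: gccgcagggaCACGTGggggcggggg
BHLHE40, E-box, chr3:4979187-4979212: tccaaCACGTGagactcatgtgatga
BHLHE41, E-box, chr12:26125070-26125095: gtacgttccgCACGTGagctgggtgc
NR1D2, D-box, chr3:23945917-23945944: tgacgcggcaTTACATAAtgggcgctga
PER3, D-box, chr1:7784104-7784131: agcccgcgcgTTATGTAAcgcgccccgg
PER2, D-box, chr2:238288596-238288623: ccgctgcggcTTACGTAAccgccgccgg

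The motifs searched on both strands were CACGTG for the E-box, TTATGTAA or TTACGTAA for the D-box, and AANT followed at once by AGGTCA or GGGTCA for the REV-ERB/ROR element. The NR1D2 D-box and the CLOCK element lie on the other strand. Of 35116 promoter windows, 7.26% held the E-box, 1.01% a D-box, and 0.379% a REV-ERB/ROR element. All 17 clock factors expressed here had a window, 24 windows in all, and these held the E-box in 6, a D-box in 3, and a REV-ERB/ROR element in 2, those of ARNTL and CLOCK. The searched letters were not in the windows of DBP, NPAS2, NFIL3, CRY1, CRY2, NR1D1, RORA, or ARNTL2. A match is a description of the sequence and not evidence of binding.

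ARNTL read 8.86, 11.2, and 9.26 FPKM (fragments scaled to transcript length and library depth) at CT08, CT12, and CT16, and 8.11, 10.2, and 6.68 FPKM at CT32, CT36, and CT40. In the ARNTL-low hours it read 5.62, 6.29, and 5.52 FPKM at CT00, CT04, and CT20, and 5.93, 6.68, and 5.80 FPKM at CT24, CT28, and CT44. The first peak was the higher of both, and the library just inside the split, CT40, read the same 6.68 FPKM as the library just outside it, CT28. With the linear trend over time removed, CT40 stood at -0.10 and CT28 at -0.11 on the log2(FPKM + 1) scale. The split is therefore wide at CT12 and CT36 and narrow at its edges. The ARNTL-high mean was 9.06 ± 1.59 FPKM (SD, n = 6) and the ARNTL-low mean 5.97 ± 0.438 FPKM (SD, n = 6), a difference of 0.53 on the same log2 scale.

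Before the results, one difference between the libraries needs to be stated. Depth relative to the other control libraries, recovered from the steps between low FPKM values, was 0.901 to 1.31 in the ARNTL-high libraries and 0.578 to 1.13 in the ARNTL-low libraries. The means were 1.11 ± 0.158 and 0.835 ± 0.195 (SD, n = 6 each; exact permutation test over all splits, two-sided, p = 0.0281, adjusted p = 0.169 over 6 library measures). The shallowest library, CT04, also had the lowest median correlation with the others, 0.883. The absolute depth is unknown, since the tables hold FPKM. The markers fit the label of an osteosarcoma line: SPARC (290.3 to 367.7 FPKM), COL1A1, VIM, and RUNX2 were present in all 12 libraries, whereas COL1A2 was at or below 0.106 FPKM. Of 12 markers of other cell types, 3 passed the filter on low values: EPCAM, RBFOX3, and a locus that joins INS with IGF2. CD3E and MYH6 were listed at 0 in every library, and the summed level of all 3 tested markers was 20.6 to 24.96 FPKM in the ARNTL-high hours and 20.3 to 23.7 FPKM in the ARNTL-low hours.

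Across the transcriptome, no locus was called different between the groups after correction. Each of 13797 loci with a mean of at least 1 FPKM, ARNTL left out, was fitted with limma on detrended log2(FPKM + 1), and differences are given on this scale as ARNTL-high minus ARNTL-low. At an adjusted p of at most 0.05, 0 loci were called (limma, Benjamini-Hochberg), 0% in either direction, and the smallest adjusted p was 0.674. At an unadjusted p under 0.05 there were 295 higher loci (2.14%) and 338 lower loci (2.45%). Together they made 633 loci (4.59%), below the 689.85 that a threshold of 0.05 gives on its own. Complete separation of the 6 high from the 6 low libraries was found at 8 higher loci (0.058%) and 21 lower loci (0.152%). The groups thus did not differ by more loci than the threshold itself admits, and the values below describe which genes lay at the ends of this distribution.

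Several of the clock factors lay at its ends. Of the 16 expressed factors in the 5 clock lists (activators, PER and CRY repressors, REV-ERB and ROR receptors, PAR-bZIP factors with NFIL3, and DEC repressors), 12 were lower and 4 higher in the ARNTL-high hours. At an unadjusted p under 0.05 there were 5 lower and 2 higher factors, beside 2.45% and 2.14% of all loci, and 0 were called after adjustment. Their median absolute difference was 0.212, beside 0.0566 over all loci. The sign was the same in both cycles for 15 of 16, beside 51.6% of all loci. The shape of the first cycle correlated with that of the second at a median r of 0.70 over 6 pairs of libraries a gene, beside 0.09 over all loci. The values are shown hour by hour in the plot of 10 genes and in the heat map of the clock factors.

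**Figure D1:**
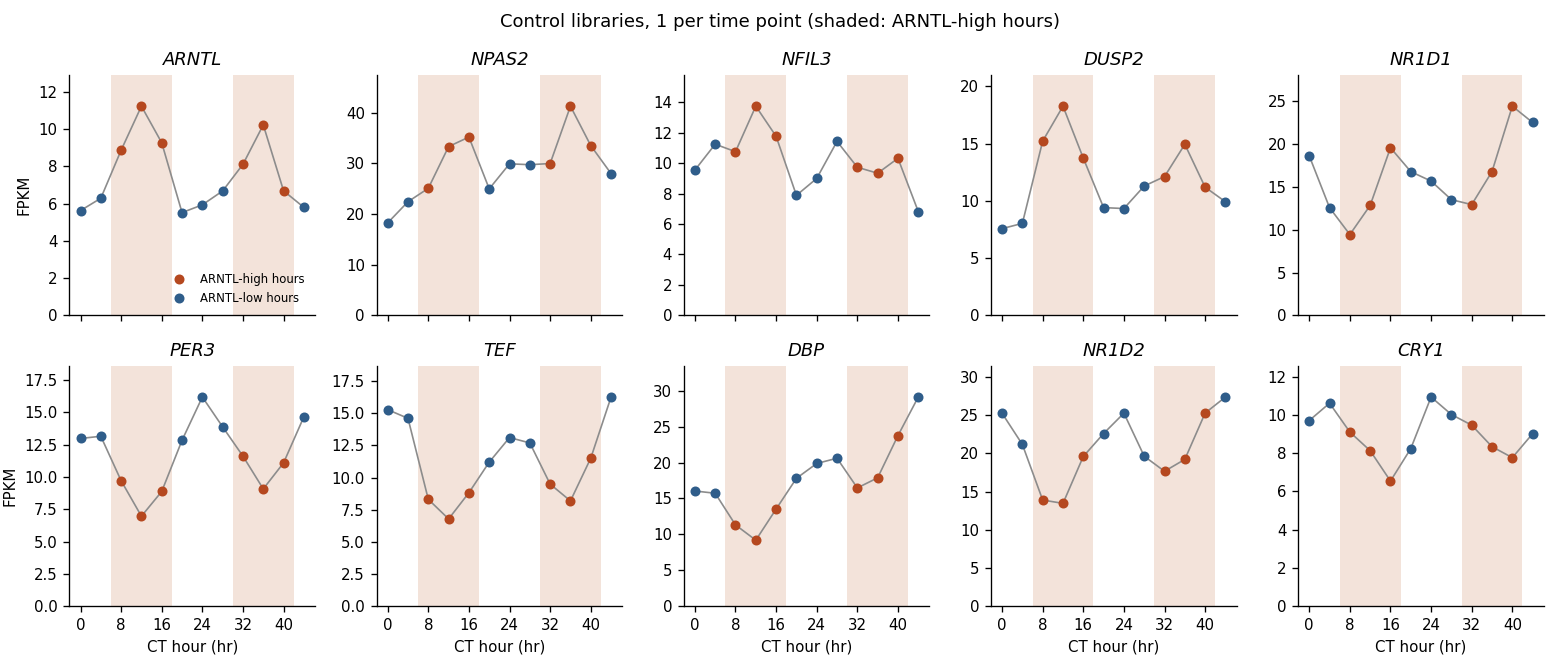
FPKM (vertical axis) against CT hour (horizontal axis) for 10 genes in the 12 control libraries, with 1 point per library, ARNTL-high hours shaded and in red, and ARNTL-low hours in blue. ARNTL, NPAS2, and DUSP2 peak in the shaded hours at CT12 or CT16 and at CT36, PER3, TEF, and DBP are lowest at CT12, and NR1D1 crosses the shaded hours from a low at CT08 to a high at CT16.

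Among the activators, NPAS2, which can take the place of CLOCK in the BMAL1 dimer, followed ARNTL most closely. It read 25.1, 33.3, and 35.2 FPKM in the first ARNTL-high hours and 30.0, 41.3, and 33.5 FPKM in the second. The ARNTL-low libraries read 18.3 to 29.9 FPKM, and the lowest of them was CT00. The groups overlapped, and the difference was 0.32 ± 0.10 (SE; unadjusted p = 0.0099, adjusted p = 0.974, limma). CLOCK, the usual partner of BMAL1, read 7.56 to 8.57 FPKM in the ARNTL-high hours and 6.83 to 8.97 FPKM in the others. Its difference was 0.04 (95% interval -0.09 to 0.17), so a difference of the size seen for NPAS2 lay outside that interval. ARNTL2, a paralog of ARNTL, read 4.74 to 5.81 FPKM and 5.23 to 6.42 FPKM in the ARNTL-high and ARNTL-low hours, a difference of -0.11 that did not pass the test and was near 0 in the second cycle (-0.20 and -0.01).

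PER3 had the smallest p of all 13797 loci. This period gene, a partner in the PER and CRY repressor complex (hg38 chr1:7784429-7845180), read 9.71, 6.96, and 8.88 FPKM at CT08, CT12, and CT16 and 11.6, 9.07, and 11.1 FPKM at CT32, CT36, and CT40. The ARNTL-low hours gave 12.97, 13.1, and 12.8 FPKM in the first cycle and 16.2, 13.9, and 14.7 FPKM in the second. Every ARNTL-low library was above every ARNTL-high library, in FPKM and after detrending. The means were 9.55 ± 1.67 and 13.9 ± 1.29 FPKM (SD, n = 6 each), and the fitted difference was -0.54 ± 0.09 (SE), 1.45-fold (unadjusted p = 9.43e-05, adjusted p = 0.674, limma). The first and second cycles gave -0.58 and -0.48, and their shapes correlated at r = 0.97. PER3 ran opposite to ARNTL in these libraries, with r = -0.92 over 12 detrended values that share the split.

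The other repressors were lower in the ARNTL-high hours with smaller differences. CRY1, the stronger of the cryptochrome repressors, read 6.55 to 9.47 FPKM against 8.24 to 10.9 FPKM, a difference of -0.22 ± 0.09 (SE; unadjusted p = 0.0302, adjusted p = 0.974, limma). Averaged over both cycles it was lowest at CT16, and its shape repeated between cycles at r = 0.88. PER1 differed by -0.26, PER2 by -0.20, and CRY2 by -0.18, none past an unadjusted p of 0.05, and all were negative in both cycles. Without 1 time point these came to -0.12 for PER1 (CT44), -0.09 for PER2 (CT12), and -0.12 for CRY2 (CT28). PER2 was read at 1.48 and 1.89 FPKM at CT12 and CT36, against 2.45 to 3.52 FPKM in all 10 other libraries, so its lowest values came at the hours of the ARNTL peak. All 5 tested PER and CRY genes were thus on the low side, with a median of -0.22, and CIART, a further repressor of this arm, was below the filter at a mean of 0.0768 FPKM.

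The REV-ERB receptors had different time courses. NR1D2 (REV-ERBβ) read 13.9, 13.5, and 19.6 FPKM in the first ARNTL-high hours and 17.7, 19.2, and 25.3 FPKM in the second, against 19.6 to 27.4 FPKM in the ARNTL-low hours. It was lower by 0.42 ± 0.12 (SE; unadjusted p = 0.00542, adjusted p = 0.974, limma) and CT40 lay among the ARNTL-low values. NR1D1 (REV-ERBα) read 9.43, 12.8, and 19.6 FPKM at CT08, CT12, and CT16 and 12.9, 16.8, and 24.4 FPKM at CT32, CT36, and CT40. Both its lowest and its highest values thus fell within the ARNTL-high hours, and its difference was -0.14 (95% interval -0.54 to 0.26), or -0.24 to -0.03 with 1 time point left out, the ends being CT16 and CT08. Averaged over both cycles, it peaked at CT16 with 21.98 FPKM and was lowest at CT08 with 11.2 FPKM, a 1.97-fold range that a comparison of high with low hours averages out. NR1D1 overlaps THRA on the other strand, and the counting is not stated to use strand, so reads of both may be mixed. RORA was at 2.02 to 2.93 FPKM and differed by 0.00, with a sign that depended on the processing. RORB was below the filter.

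Of the 5 lists of clock factors, the D-box factors had the median farthest from 0, -0.48 over 3 genes. TEF, a PAR-bZIP activator (hg38 chr22:41367333-41399328), read 8.31, 6.79, and 8.82 FPKM in the first ARNTL-high hours and 9.49, 8.19, and 11.5 FPKM in the second, against 11.2 to 16.3 FPKM in the ARNTL-low hours. It was lower by 0.62 ± 0.11 (SE), 1.53-fold, the largest difference of the clock factors (unadjusted p = 0.000152, adjusted p = 0.697, limma). The groups met only at CT40 and CT20. DBP, a well-known output of BMAL1/CLOCK (hg38 chr19:48630560-48637550), read 16.03 FPKM at CT00 and 29.1 FPKM at CT44, with a slope of 0.51 log2 per 24 hr. Against that trend its libraries separated completely, with a difference of -0.48 ± 0.10 (SE; unadjusted p = 0.000421, adjusted p = 0.974, limma). In FPKM as deposited, the groups overlapped, with 9.19 to 23.7 FPKM against 15.7 to 29.1 FPKM. NFIL3, which represses through the same D-boxes, was on the other side, with its highest value, 13.7 FPKM, at CT12 and its lowest, 6.82 FPKM, at CT44. It was higher by 0.26 ± 0.10 (SE; unadjusted p = 0.0274, adjusted p = 0.974, limma), 0.35 in the first cycle and 0.16 in the second. HLF was below the filter at a mean of 0.253 FPKM.

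**Figure D2:**
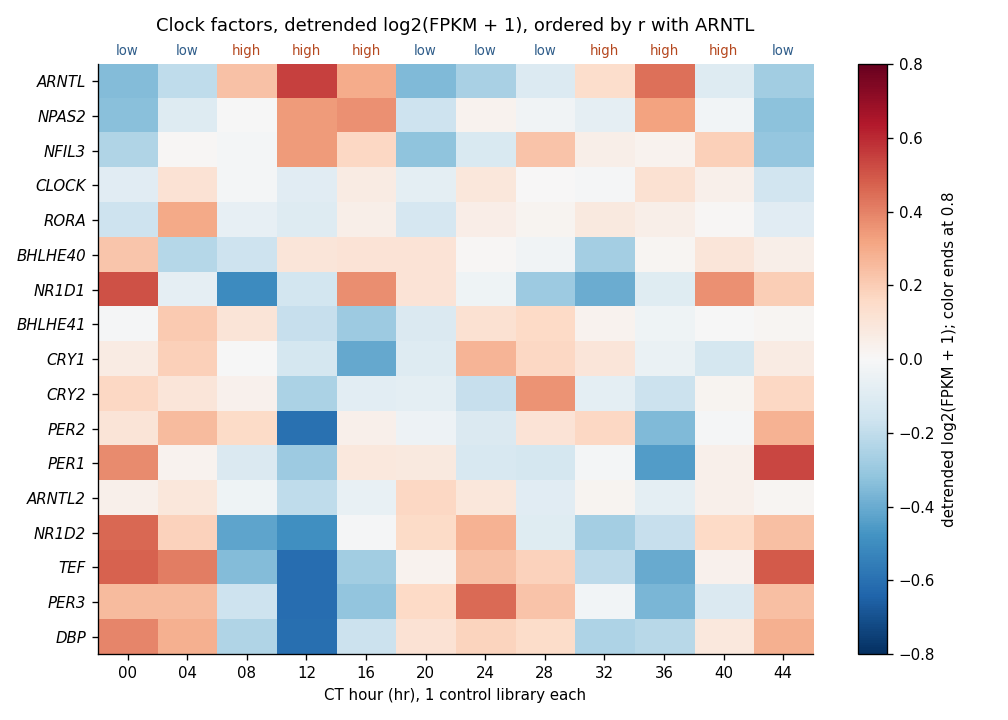
Detrended log2(FPKM + 1) of ARNTL and the 16 clock factors tested (rows, ordered by Pearson r with ARNTL) in the 12 control libraries (columns, CT hour, with the group above). Red is above and blue below the gene's own trend line. PER3, TEF, DBP, and NR1D2 are blue at CT12 where ARNTL, NPAS2, and NFIL3 are red, and NR1D1 changes color within the ARNTL-high hours.

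The DEC repressors BHLHE40 and BHLHE41, which compete for E-boxes, differed by -0.04 and -0.13 and did not pass the test, and BHLHE41 came to -0.08 without CT16. Their levels were among the highest of the clock factors, with 40.9 to 75.7 FPKM and 22.1 to 32.9 FPKM over all 12 libraries. The kinases and ubiquitin ligases that set the stability of PER and CRY hardly differed. CSNK1D, CSNK1E, GSK3B, BTRC, and FBXW11 were all on the low side, by -0.06 to -0.01, with 0 of 5 at an unadjusted p under 0.05, and FBXL21 was listed at 0 in every library. The median of these 5 genes was -0.03, beside -0.00 for all loci.

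Hours of peak and trough, taken from FPKM without detrending and averaged over the 2 cycles, differed between the factors. ARNTL, NPAS2, and NFIL3 peaked at CT12, NR1D1 at CT16, and DBP, PER1, and ARNTL2 at CT20. PER3, TEF, NR1D2, CRY1, and BHLHE40 peaked at CT00, and PER2, CRY2, CLOCK, RORA, and BHLHE41 at CT04. A trend over time, as in DBP, can move these hours. Of the 16 factors, 8 had their trough at CT12, the hour of the ARNTL peak, beside 14.5% of all loci tested. Each of these hours rests on 2 libraries, so neighboring hours cannot be told apart.

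Differences between the same CT hours in the 6AN culture were fitted within the 6AN table. Of 13769 loci, 0 were called (0%, smallest adjusted p = 0.259, limma), and 384 higher (2.79%) and 418 lower loci (3.04%) had an unadjusted p under 0.05, 802 together (5.82%). The groups of hours did not overlap at 33 higher (0.24%) and 45 lower loci (0.327%). ARNTL itself read 3.29, 3.58, and 8.95 FPKM at CT08, CT12, and CT16 under 6AN, and 10.9, 7.14, and 12.6 FPKM at CT00, CT04, and CT20. Its difference there was -0.84 ± 0.21 (SE; unadjusted p = 0.0022, adjusted p = 0.61, limma), so ARNTL was on average lower under 6AN at the CT hours that define the ARNTL-high group of control. PER3 stood opposite to it again, with 12.2 to 19.5 FPKM at the CT hours of the ARNTL-high group and 7.004 to 12.3 FPKM in the others. After detrending, these libraries did not overlap, in the direction opposite to control, and the difference was 0.71 ± 0.14 (SE; unadjusted p = 0.00036, adjusted p = 0.37, limma). TEF differed by 0.52, DBP by 0.44, PER2 by 0.50, CRY1 by 0.41, and CRY2 by 0.40 under 6AN, and NPAS2 and NFIL3 by -0.18 and -0.31. Of the 16 clock factors, 13 had the opposite sign under 6AN, beside 48.7% of all loci. No test was made between the tables, which were normalized separately.

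**Figure D3:**
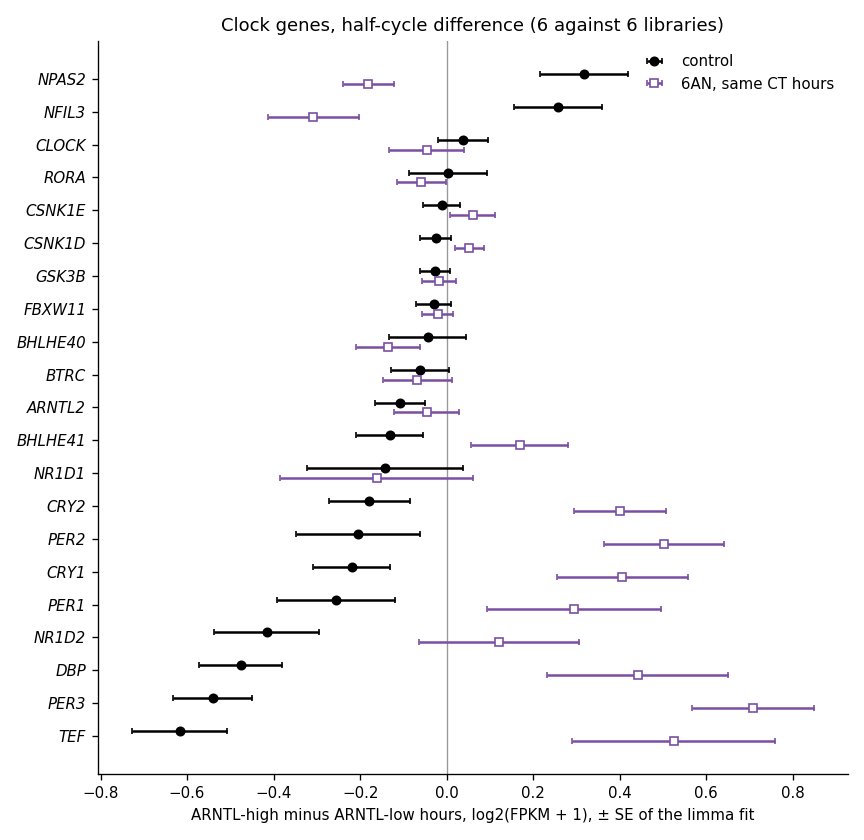
ARNTL-high minus ARNTL-low hours on log2(FPKM + 1) (horizontal axis) for 21 clock genes tested (vertical axis), in control (filled circles) and in the 6AN culture at the same CT hours (open squares), with the SE of the limma fit, 6 against 6 libraries each. PER3, TEF, and DBP are lowest in control and on the positive side under 6AN, and NPAS2 and NFIL3 show the reverse, whereas the kinases and ubiquitin ligases stay near 0 in both.

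BMAL1 and CLOCK binding, measured by ChIP-seq in 1 control library each, was not used for the split. The paper took chromatin at 1 time of incubation, so binding was not compared between the groups of hours. The control list holds 147 shared BMAL1/CLOCK sites, 73 of them at promoters, with signal as tags per site scaled to 1e+07 tags per library. The strongest CLOCK signal was at the TEF promoter (712 for CLOCK, 365 for BMAL1, and 13.2 for input), followed by NR1D2 (641, 359, and 7.21). PER3 had 341 and 233, and PER2 had 347 and 147, beside medians of 45.4 for CLOCK and 38.2 for BMAL1 over all sites. Of the 12 stretches printed above, 7 lie inside these sites, those of NR1D2, PER2, PER3, and BHLHE40 and the downstream E-box of TEF. The other 5, of ARNTL, CLOCK, PER1, and BHLHE41 and the upstream E-box of TEF, lie inside none. DBP had an intronic site with a CLOCK signal of 109, and a site assigned to SEC1P with 333 spans the DBP promoter window. Of the clock genes in all 6 lists, 11 tested genes had a site and all 11 were on the low side, beside 6956 of all 13797 loci. Among them, CSNK1D (-0.03) and BHLHE40 (-0.04) were near 0. The sites of CSNK1D, PER1, and BHLHE41 were intergenic, at -14433, -4067, and 10532 bases from the start site. Of the 10 tested clock genes without a site, 4 were on the high side (NPAS2, NFIL3, CLOCK, and RORA) and 6 on the low side (CRY1, ARNTL2, CSNK1E, GSK3B, BTRC, and FBXW11).

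Over all 122 tested genes with a control site, 76 were lower and 46 higher, and the median was -0.03, beside -0.00 for all loci. This median was -0.02 without CT16 or CT44, and with depth as a further term. Of these, 10 were lower (beside 2.45%) and 1 higher (beside 2.14%) at an unadjusted p under 0.05, and 3 separated completely on the low side (beside 0.152%): PER3, DBP, and RAD9A. Without the clock lists, 111 genes remained, 65 lower and 46 higher, with a median of -0.02. At an unadjusted p under 0.05, 6 of them were lower (beside 2.45%) and 1 higher (beside 2.14%). RAD9A, a subunit of the DNA damage checkpoint clamp (hg38 chr11:67391952-67401905), read 6.10 to 7.48 FPKM in the ARNTL-high hours and 7.61 to 9.60 FPKM in the others. It was lower by 0.29 ± 0.06 (SE; unadjusted p = 0.000863, adjusted p = 0.974, limma), and the signal at its promoter was 65.7 for BMAL1 and 49.0 for CLOCK. The locus overlaps PPP1CA, so reads near their shared end are uncertain. The 1 gene on the high side at an unadjusted p under 0.05 was DUSP5, a phosphatase of ERK, with 0.23, named here after its value was seen.

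Outside the clock, the locus closest to ARNTL was DUSP2, a nuclear phosphatase that inactivates MAP kinases (hg38 chr2:96143169-96145440). It read 15.2, 18.3, and 13.7 FPKM in the first ARNTL-high hours and 12.1, 14.9, and 11.2 FPKM in the second, against 7.58 to 11.3 FPKM in the ARNTL-low hours. The groups met only at CT40 and CT28, the libraries at the edge of the split. Its difference was 0.56 ± 0.12 (SE), 1.48-fold (unadjusted p = 0.000652, adjusted p = 0.974, limma), with 0.82 in the first cycle and 0.28 in the second. Its correlation with ARNTL over the 12 libraries, r = 0.95, was the highest of all loci outside the small RNA loci, followed by GPR137 (0.91), SIN3B (0.88), PACSIN3 (0.87), and NPAS2 (0.86). SIN3B is a scaffold of histone deacetylase complexes. At the other end stood DBP (-0.93), PER3 (-0.92), TEF (-0.92), EPB41L2 (-0.87), and SEPT2 (-0.86). These 10 loci were picked from 13797, so such values are to be read as an order and not as evidence of coupling.

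Most of the remaining loci with the smallest p on the high side differed little. NDUFB5, a subunit of respiratory complex I, read 53.9 to 60.0 FPKM against 50.2 to 53.2 FPKM, without overlap, a difference of 0.14. GATSL3 (0.25), EFNB3 (0.24), an ephrin ligand, and EPN2 (0.18), an endocytic adaptor, also separated completely after detrending. LAT, an adaptor of T cell receptor signaling, differed by 0.27, GPR19, an orphan receptor, by 0.43, and PIN4, a prolyl isomerase, by 0.35. LINC00381, a noncoding RNA, read 1.07 to 2.97 FPKM against 0 to 1.86 FPKM. It passed the filter only through the ARNTL-high hours, as its mean in the others was 0.856 FPKM, and its difference was 0.91, or 1.89 with a pseudocount of 0.1. The locus named LSP1 and MIR7847 differed by 2.61, with 7.58 to 145.9 FPKM against 2.75 to 7.08 FPKM. It joins a protein-coding gene with a small RNA.

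On the low side, NUP133, a scaffold subunit of the nuclear pore, read 11.8 to 13.7 FPKM against 14.3 to 15.7 FPKM, without overlap, and differed by -0.19. ZNF22, LOC100132077, and EPB41L2, a membrane skeleton protein, also separated completely after detrending, by -0.17, -0.21, and -0.14, though ZNF22 and LOC100132077 overlapped in FPKM, and C2orf69 differed by -0.21. LOC100507424, which overlaps FOXM1 and RHNO1, separated after detrending but not in FPKM, and differed by -0.73 at 1.44 to 5.58 FPKM. Adjusted p-values of the loci in this paragraph and the one before it were all 0.974 (limma).

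Proliferation genes were on the low side in the ARNTL-high hours, though with a pattern other than that of the clock. All 18 mitotic genes had a negative difference, with a median of -0.20, beside 50.4% of all loci on that side. At an unadjusted p under 0.05 there were 2 (beside 2.45%), PLK1, a mitotic kinase (-0.31), and KIF20A, a mitotic kinesin (-0.34), and 0 were called after adjustment. The median in the first cycle was -0.41 with 18 of 18 negative, and in the second it was 0.00 with 9 of 18. PLK1 read 68.5 FPKM at CT00, far above 43.95 FPKM at CT04, its next highest value, and 30.4 to 38.8 FPKM in the 10 other libraries. Without CT00, the difference was -0.21 for PLK1 and the list median -0.13. PLK1 and KIF20A share their loci with ERN2 and CDC23, and how reads were split between them is uncertain. The term for a difference between cycles gave an unadjusted p of 0.0063 for KIF20A and 0.038 for PLK1 (limma), beside 4.28% of all loci under 0.05 and 0% at an adjusted p of at most 0.05. All 18 S phase genes were on the low side as well, by -0.16 to -0.01, with MCM4, a subunit of the replicative helicase, at -0.13 the 1 member under 0.05 (beside 2.45%). Here the second cycle had the larger median, -0.09 against -0.05. Members of these lists are known to move together in dividing cells and are not independent, and in bulk RNA fewer dividing cells and less RNA per cell cannot be told apart.

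Immediate early genes stood on the other side. Of 10 tested, 9 were higher, with a median of 0.15, and EGR1 and EGR2, zinc finger factors induced by growth signals, were under 0.05 (beside 2.14%). EGR1 read 58.6, 69.0, and 65.0 FPKM in the first ARNTL-high hours, above 41.1 to 48.3 FPKM in the ARNTL-low hours of that cycle. In the second cycle it read 52.7, 64.0, and 57.1 FPKM against 46.8, 63.8, and 54.6 FPKM, so the groups overlapped there. The list median was 0.21 in the first cycle and 0.08 in the second. DUSP2, itself a growth-induced gene, also had the larger difference in the first cycle, and the term for a difference between cycles gave an unadjusted p of 0.018 and an adjusted p of 0.9998 (limma).

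**Figure D4:**
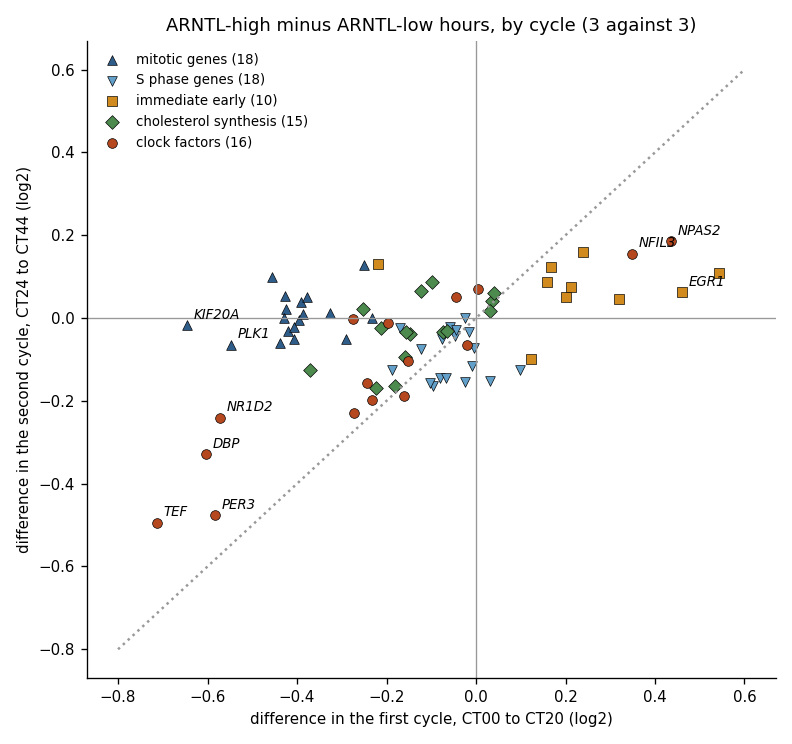
Difference between ARNTL-high and ARNTL-low hours in the first cycle (horizontal axis) and in the second (vertical axis), log2, 3 against 3 control libraries each, for the members of 5 groups of genes. The dotted line marks equal differences. PER3, TEF, DBP, and NR1D2 lie far from 0 on both axes, whereas the 18 mitotic genes are spread along the horizontal axis at a second-cycle difference near 0.

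Of the metabolic lists, cholesterol synthesis had the most members at an unadjusted p under 0.05. Of 15 genes, 12 were lower, with a median of -0.09, or -0.05 without CT08. The 3 under 0.05 (beside 2.45%) were HMGCS1 (-0.20), which makes HMG-CoA, MVK (-0.25), the mevalonate kinase, and SC5D (-0.18), a late sterol enzyme. HMGCS1 had a slope of -0.66 log2 per 24 hr, from 40.1 FPKM at its highest to 15.1 FPKM. Without removal of the trend, its difference was -0.31 and the list median -0.15. The first cycle held the larger median, -0.15 against -0.03.

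The pentose phosphate pathway, which 6AN inhibits, hardly differed between the groups in control. PGD (-0.01), TKT (0.03), and TALDO1 (-0.05) were expressed at mean levels of 87.6 to 136.8 FPKM and had no difference past the test. PGLS, which hydrolyses 6-phosphogluconolactone, was the exception by unadjusted p. It read 22.1, 20.6, and 19.2 FPKM and 19.6, 22.1, and 21.1 FPKM in the ARNTL-high hours, against 17.1 to 19.4 FPKM in the ARNTL-low hours, with overlap. The difference was 0.16 ± 0.05 (SE; unadjusted p = 0.00673, adjusted p = 0.974, limma) and the same in both cycles (0.15 and 0.16). Glycolysis had 1 of 17 on each side under 0.05 (beside 2.14% higher and 2.45% lower), HK2, a hexokinase (0.15), and ENO2, an enolase (-0.17), with a median of -0.02.

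Of 9 tested clock output genes, 2 were lower under 0.05 (beside 2.45%), ALAS1, the first enzyme of heme synthesis (-0.15), and KLF11, a zinc finger repressor (-0.14). Among 12 glucocorticoid response genes there was 1 on each side (beside the same shares), CEBPD, a bZIP activator (0.27), and GLUL, glutamine synthetase (-0.14). CEBPD rested on CT12, without which its difference was 0.15. The NRF2 targets (14 genes, median -0.01), peroxiredoxins (6, median -0.04), heat shock chaperones (10, median -0.04), genes of the integrated stress response (10, median 0.04), and cold-inducible RNA-binding proteins (4, median -0.03) had 0 members under 0.05, and the sign of each of these 5 medians turned under at least 1 alternative. The integrated stress response genes mostly had opposite signs in the cycles, with medians of -0.08 and 0.14, and shapes that correlated at a median r of -0.68. The NRF2 targets also had medians of opposite sign, -0.11 in the first cycle and 0.07 in the second, so their median near 0 averages over both. Of the 14 genes, 10 were lower in the first cycle and 2 in the second, beside 50.1% and 50.2% of all loci. This was not tested for the list.

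**Figure D5:**
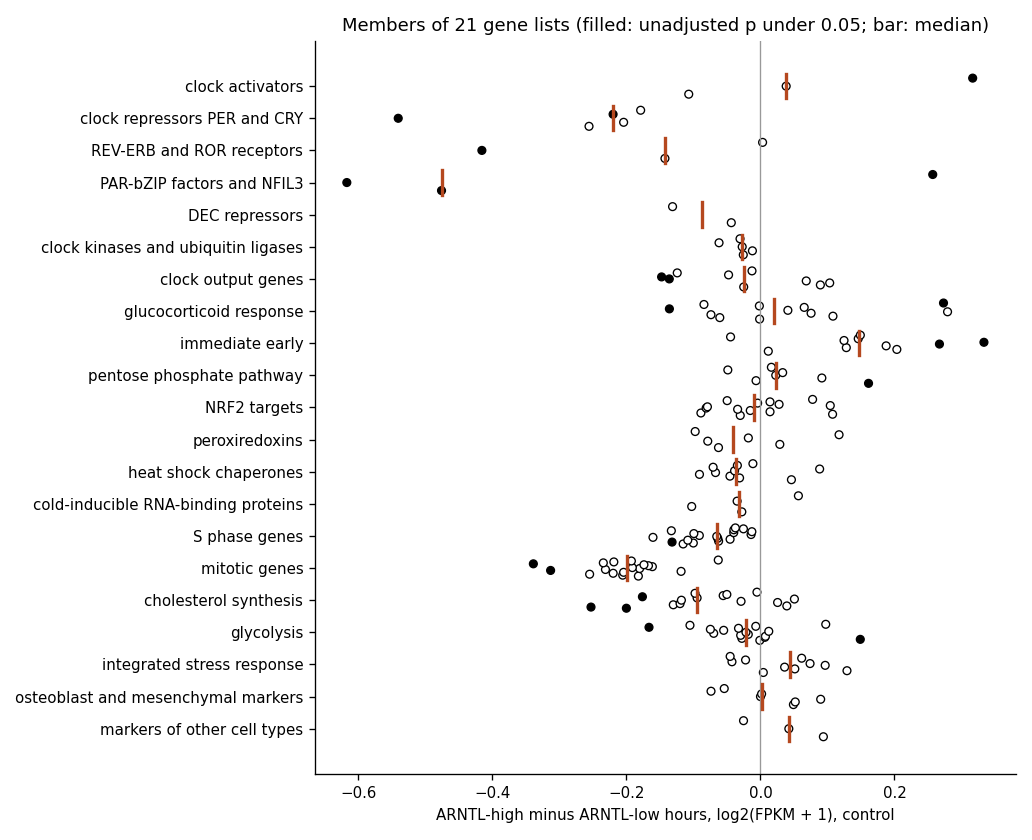
ARNTL-high minus ARNTL-low difference on log2(FPKM + 1) (horizontal axis) for each tested member of the 21 gene lists (vertical axis) in control, ARNTL left out. Filled points have an unadjusted p under 0.05 (limma), bars are list medians, and no point passed an adjusted p of 0.05. The PER and CRY, PAR-bZIP, mitotic, and S phase lists lie to the left of 0 except for NFIL3, and immediate early genes lie mostly to the right.

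Since depth moved with the groups, the fit was repeated with log2 relative depth as a further term, chosen after the data were seen. PER3 (-0.55), TEF (-0.52), DBP (-0.43), NR1D2 (-0.38), NPAS2 (0.28), and DUSP2 (0.54) kept their sign and moved by less than 1.5 times, as did CRY1 (-0.15) and NFIL3 (0.18). Values that moved by more were EGR1 (0.17), ALAS1 (-0.08), GLUL (-0.09), BHLHE41 (-0.06), BHLHE40 (-0.10), BTRC (-0.14), FBXW11 (-0.06), CSNK1D (-0.01), CSNK1E (-0.01), RORA (0.06), and MCM4 (-0.21). The S phase median came to -0.12, that of the integrated stress response to 0.20, and that of the heat shock chaperones to -0.11. Smaller medians that grew were those of the pentose phosphate pathway (0.06), glucocorticoid response (0.06), and clock output genes (-0.04). The medians of cold-inducible RNA-binding proteins (-0.01) and markers of other cell types (0.01) shrank. Those of NRF2 targets (0.03), peroxiredoxins (0.01), and osteoblast and mesenchymal markers (-0.0046) changed sign. With 12 libraries, depth and the split of hours cannot be fully told apart.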

How the data were processed

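RNA-seq was measured in 24 libraries and ChIP-seq in 10. The authors deposited FPKM for 28690 loci, in 1 table for control and 1 for 6AN, normalized across the libraries of each table. The submitters' processing notes name TopHat, Bowtie2, Cufflinks, and hg38, with versions not given in the sources used here. For ChIP-seq, the authors deposited signal at shared sites from HOMER, as tags in 1000 bp scaled to 1e+07 tags per library. Columns of per-sample values left out numbered 0. Loci with a mean of at least 1 FPKM (13798) were kept, a linear trend in CT hour was removed from log2(FPKM + 1), and the 2 groups of hours were compared with limma 3.58.1 in R 4.3.3 (empirical Bayes with a variance trend, CT hour kept as a term, two-sided, 11.2 degrees of freedom). Differences of detrended means are 0.979 of the fitted differences. Per-cycle values are differences of detrended means, 3 against 3, which an exact test cannot bring under 0.05. Other values used Python 3.11.15, NumPy 2.4.6, pandas 2.3.3, SciPy 1.17.1, and matplotlib 3.10.9.

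The hours, the 21 gene lists, and the tests were chosen with earlier results of these data known. Genes named were ARNTL, NR1D1, and PER3, all tested members of the 6 clock lists, the 10 loci of smallest p in each direction with 1 sign in both cycles (small RNA loci left out), up to 4 members of each other list, the 5 highest and 5 lowest r with ARNTL, and up to 5 genes with a control site. Some list members are not reported here and were left out of the lists' counts and medians. The fit was tested on simulated data with independent noise in each library and a step between the groups. Such data cannot show how the fit behaves where neighboring time points share their state. Alternatives covered the pseudocount, low-value filters, the trend, a cycle term, the variance model, scaling, small RNA loci, a depth term, and leaving out each time point. Rhythm tests, other 6AN comparisons, and binding under 6AN were left out to keep to the half-cycle comparison. The 6AN site list served only for 1 alternative set of genes with a site. A comparison of 2 groups of hours is not a test of rhythm. The paper did detect rhythmic transcripts in the control cells, with NR1D1, NR1D2, TEF, DBP, BMAL1, and PER3 among them.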

Additional observations from a re-analysis of the deposited data

Results flagged for a closer look

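PER3 differed between the groups of hours by -0.54 in control and by 0.71 at the same CT hours under 6AN, and in each table, after detrending, the 6 libraries of the ARNTL-high hours did not overlap the 6 others. The difference between the tables was not tested.

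Single libraries stood apart from the other 5 of their group in 10 of 126 groups looked at, where about 1 in 20, or 6.3, would be flagged in independent groups. Many of these genes were picked by their values in the same libraries, and some move together, so 6.3 is only a rough guide. Values are detrended log2(FPKM + 1). PER3 was highest of its group at CT24, at 0.45 against 0.16 to 0.25. PLK1 at CT00 stood at 0.63 against 0.02 to 0.12, and KIF20A at the same hour at 0.61 against -0.03 to 0.15. CEBPD was high at CT12 (0.66 against -0.14 to 0.14) and low at CT04 (-0.43 against -0.11 to -0.06). LAT at CT28 stood at 0.11 against -0.25 to -0.14, and SEPT2 at the same hour at -0.057 against 0.06 to 0.11. PIN4 at CT24 was low, at -0.48 against -0.19 to -0.02. ZNF22 at CT16 stood at -0.17 against -0.09 to -0.05, and LOC100132077 at CT20 at -0.014 against 0.10 to 0.16.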

How the results depend on the processing

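In control, the number of loci with an adjusted p up to 0.05 stayed at 0 in both directions except when a time point was left out: they ranged from 0 to 1 higher and from 0 to 1 lower. The called loci were small RNA loci, SNORD36B without CT04 and SNORA2B without CT44. At an unadjusted p under 0.05, 472 loci were higher with no filter on FPKM. For the 6AN culture at the same hours, 239 were higher and 208 lower without trend removal, beside 384 and 418. The median of genes with a control site, -0.03, was -0.011 when the sites of the 6AN list were used. Of the 58 genes recomputed one by one, 54 kept their sign under every alternative, and members of the other lists with an unadjusted p of 0.05 or more were recomputed only within their list medians. The signs of RORA (-0.0012 with a quadratic trend, and -0.029 to 0.062 with 1 time point left out), CLOCK (-0.0082 to 0.066), BHLHE40 (-0.091 to 0.0050), and CSNK1E (-0.029 to 0.013) turned when 1 time point was left out, all near 0. None of these genes, with ARNTL not tested, passed an adjusted p of 0.05 under any alternative. Single libraries could not be paired because the labels carry CT hours and no replicate numbers shared between the groups of hours. Libraries were grouped by cycle in the alternative with a cycle term. FPKM tables give no counts, so counting error could not be computed.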
